A study of Mus musculus with 6 samples.

Results

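The solute carriers (Slc and Slco genes) are a superfamily of membrane proteins, and their RNA levels were followed through the 4 RNA libraries of a study of the histone methyltransferase gene Setd2 in mouse blood stem and progenitor cells. Every gene whose symbol starts with Slc, a number, the letter a and a number, or with Slco, was taken, except Slc4a1 and Slc40a1. That gave 192 of 14455 gene symbols. Of the 192, 185 are transporters. The other 7 carry such a name without being one: the scaffold proteins Slc9a3r1 and Slc9a3r2, the opposite-strand gene Slc7a6os, the adaptor gene Slc4a1ap, and the pseudogenes Slc2a4rg-ps, Slc39a1-ps and Slc22a13b-ps. The cells were LSK cells, named for being Lin-, Sca-1+ and c-Kit+, a fraction of the marrow, in which the blood stem cells and early multipotent progenitors are found, sorted from C57BL/6 mice. Mice were either wild type (WT) or had a conditional knockout of Setd2 (KO). The labels of all 4 groups give a time after pI-pC, a double-stranded RNA used to induce such deletions: 4 weeks for young WT and young KO, and 8 months for old WT and old KO. The Cre line and the number of animals behind each library are not given in the sources used here. Each group had 1 library, so the differences below come with neither replicates nor p-values and describe these libraries only.

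Solute carriers move small molecules across membranes by facilitated diffusion, exchange, or coupling to an ion gradient. Those of the plasma membrane bring in amino acids, sugars, nucleosides, metal ions and vitamins, and others sit in lysosomes, the Golgi or the inner membrane of mitochondria, where the Slc25 family exchanges nucleotides, phosphate and metabolites. In blood formation they are best known from the red cell lineage, which takes up large amounts of iron and glycine for heme, and from dividing progenitors, which depend on amino acid uptake to keep the growth kinase complex mTORC1 active.

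Levels are given as scaled FPKM, that is, fragments per kilobase of transcript, relative to library size, after a common scaling of the 4 libraries. Each file lists genes at an FPKM of 0.5 or more, between 13182 and 13327 genes a library. A gene that a file does not hold is called not listed. Where 4 levels follow a gene with no group named, they are those of young WT, young KO, old WT, then old KO. A difference is that of log2(scaled FPKM + 1), which understates changes at low levels. A gene counted as measured where it reached 1 in at least 1 of the 2 libraries, and it was called 2-fold higher or lower from a difference of 1. From the spacing of low values, the counting error of a log2 ratio for a transcript of 2 kb came to 0.47 at an FPKM of 1, 0.21 at 5 and 0.11 at 20 in the young pair, and to 0.48, 0.22 and 0.11 in the old pair. These errors cover counting only. Setd2 itself stood at 14.1 and 12.4 in young WT and KO and at 15.3 and 15.5 in old WT and KO, and since the deleted exons are not given, this gene-level value checks no label. Of the sorting markers, Kit stood between 41.1 and 61.0, and Ly6a, which encodes Sca-1, between 3.17 and 8.80. The X-inactivation RNA Xist was listed in both old libraries and in neither young one, and the Y-linked Eif2s3y the other way round, so age and the sex of the mice cannot be told apart.

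Of the 192 genes, 169 were listed in all 4 libraries and 23 in 1 to 3 of them, while 18 stayed below 1 throughout. The median solute carrier gene stood at 5.29 and 4.89 in young WT and KO and at 4.82 and 4.67 in old WT and KO. The median over all genes was 5.33, 5.39, 5.53 and 5.44 in the same order. In these cells 35 of the genes were at 10 or more in all 4 libraries. Among the 74 at 5 or more in all 4, the highest library exceeded the lowest by a median of 1.29 times, beside 1.32 times for the 5975 genes of that level overall. The ratio reached 2 in 2 of these 74 genes (2.70%; Slc22a3 at 2.23 and Slc18a2 at 2.13), beside 8.54% of all genes of that level.

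The single highest carrier was Slc25a5, which encodes adenine nucleotide translocase 2, the exchanger of ADP and ATP across the inner mitochondrial membrane. It stood at 102 and 116 in young WT and KO and at 125 and 134 in old WT and KO. Slc38a2, a sodium-coupled importer of glutamine and other small neutral amino acids, came next at 81.1, 90.9, 78.0 and 85.4. The choline transporter gene Slc44a2 ranged from 46.3 to 68.6 and the organic cation transporter gene Slc22a3 from 22.1 to 49.2. By substrate, the 40 Slc25 genes summed to between 412 and 427 scaled FPKM in the 4 libraries and the 28 amino acid and peptide carriers to between 329 and 352. The 25 metal and heme carriers summed to between 213 and 230, the 12 sugar carriers to between 43.5 and 52.2, and the 5 nucleoside carriers to between 39.7 and 45.8. None of these 5 sums differed by 1.5 times between libraries. The sum of the 17 organic ion carriers was 133 in young WT and 128 in young KO, beside 91.0 in old WT and 92.1 in old KO.

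**Figure D1:**
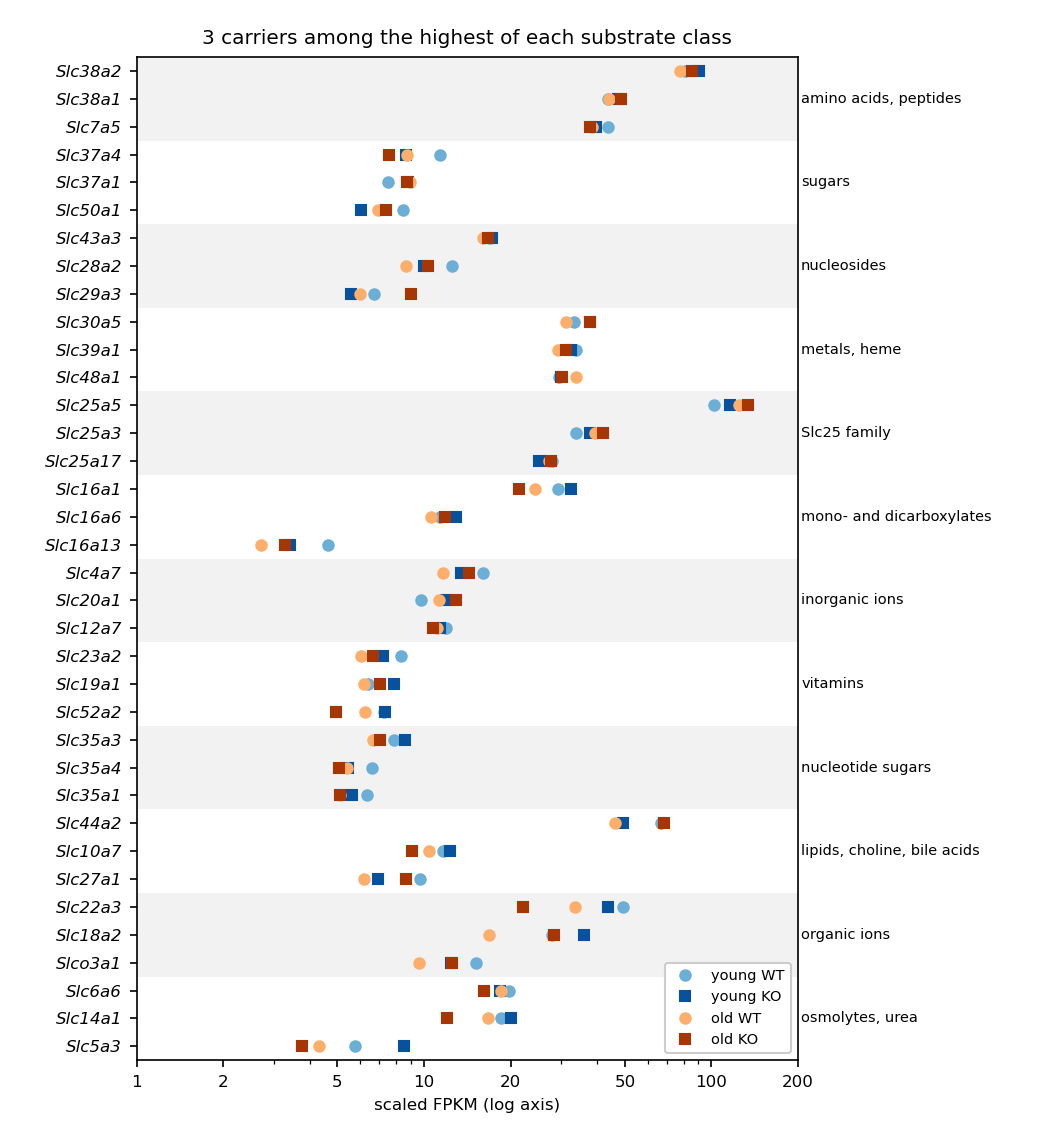
Scaled FPKM (log axis) of 3 carriers among the highest of each of 12 substrate classes, 1 point per library. Most genes hold their level across the 4 libraries, with Slc25a5 between 102 and 134 at the top; Slc22a3, Slc18a2 and Slc5a3 spread more widely.

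The comparison of KO with WT at each age asks what the loss of Setd2 went with. In the young pair, 172 solute carrier genes were measured. Of these, 2 were 2-fold higher in KO (Slc38a5 and Slc26a1), where 1.02% of all 12409 measured genes were, and 0 were 2-fold lower, where 0.701% of all genes were. The median difference was 0.02, beside 0.00 over all genes, with 89 genes above and 83 below 0. In the old pair 161 were measured. There 0 were 2-fold higher (1.63% of all 12478 genes) and 2 were 2-fold lower (2.66% of all genes), namely Slc38a5 and Slc39a4. The median was -0.03, beside 0.00 over all genes, with 72 genes above and 89 below 0. The members' shares at 2-fold are thus counts of 0 to 2 genes beside backgrounds of a similar or higher percentage. Within 0.5 of no difference lay 153 of 172 genes in the young pair (89.0%), beside 88.8% of all genes. In the old pair it was 144 of 161 (89.4%), beside 84.1% of all genes.

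**Figure D2:**
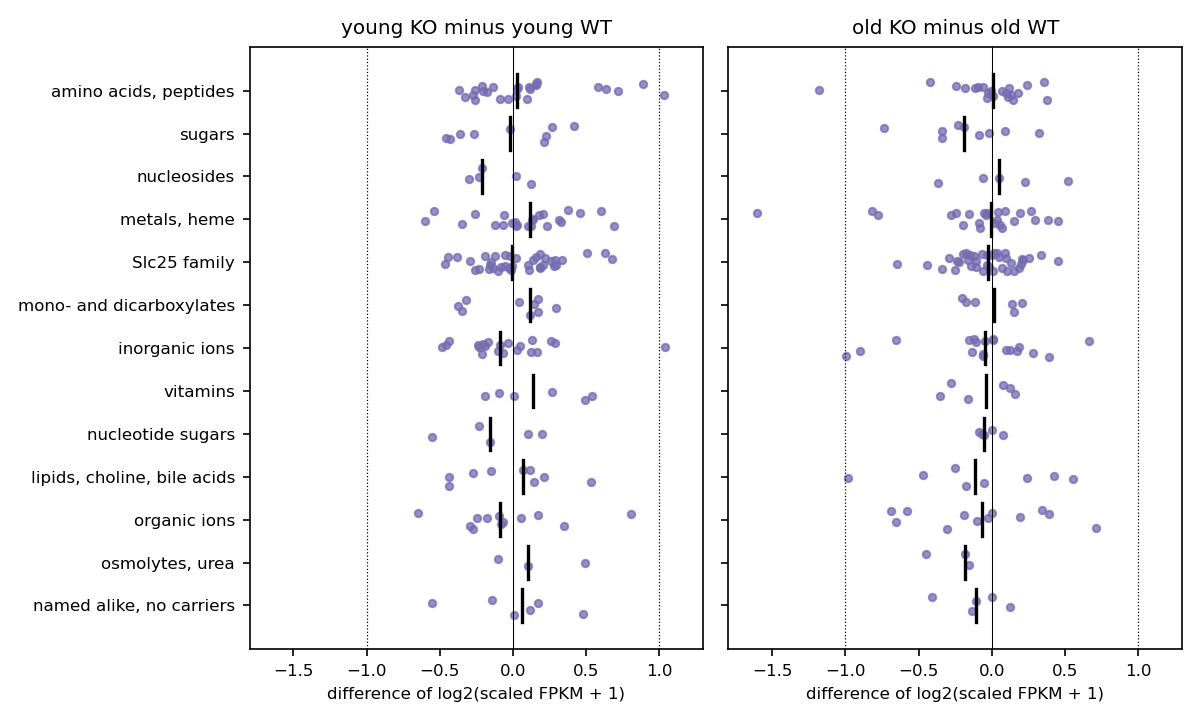
Difference of log2(scaled FPKM + 1) between KO and WT for each measured gene, by substrate class, in the young pair (left) and the old pair (right); black bars mark class medians and dotted lines 2-fold. Class medians lie between -0.21 and 0.14 in the young pair and between -0.19 and 0.05 in the old pair, and single genes, Slc38a5 and Slc26a1 on the left and Slc38a5 and Slc39a4 on the right, pass 2-fold.

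Slc38a5 (ENSMUSG00000031170, chromosome X, 8271133 to 8280179, mm10) passed 2-fold in both comparisons, in opposite directions. It encodes a sodium-coupled transporter of glutamine, asparagine, histidine, serine and glycine. Its level was 5.17 and 11.6 in young WT and KO and 9.21 and 3.5 in old WT and KO. Young KO held the highest level of the 4 and old KO the lowest, with both WT libraries in between. The difference was 1.03 in the young pair, a 2.24-fold higher level, and -1.18 in the old pair, a 2.63-fold lower level. Whether the differences at the 2 ages differ was not tested. The young difference lies close to the threshold and stood at 0.93 without scaling, and with a pseudocount of 5 both lay under 2-fold (0.71 and -0.74).

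The promoters of Slc38a5, Slc25a38 and Slc43a1 are shown as examples of carriers that, like Slc11a2, were highest in young KO, the library in which the red cell markers described next were also highest. Each runs from 250 bases before to 50 bases after a gene start of RefSeq (GRCm38.p6, plus strand, 5′ to 3′). Capitals mark matches on either strand to a GATA motif (AGATAA, or that word with a first T or a last G in place of its A, or with both), or to CCNCNCCC, a core bound by Klf factors. The windows are chrX:8271131-8271430 for Slc38a5, chr9:120110132-120110431 for Slc25a38 and chr2:84840073-84840372 for Slc43a1.
Slc38a5: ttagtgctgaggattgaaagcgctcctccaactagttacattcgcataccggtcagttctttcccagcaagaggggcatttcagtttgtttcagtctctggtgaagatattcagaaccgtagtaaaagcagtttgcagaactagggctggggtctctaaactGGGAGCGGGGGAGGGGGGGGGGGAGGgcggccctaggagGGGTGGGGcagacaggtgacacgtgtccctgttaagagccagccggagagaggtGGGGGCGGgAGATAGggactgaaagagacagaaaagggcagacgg
Slc25a38: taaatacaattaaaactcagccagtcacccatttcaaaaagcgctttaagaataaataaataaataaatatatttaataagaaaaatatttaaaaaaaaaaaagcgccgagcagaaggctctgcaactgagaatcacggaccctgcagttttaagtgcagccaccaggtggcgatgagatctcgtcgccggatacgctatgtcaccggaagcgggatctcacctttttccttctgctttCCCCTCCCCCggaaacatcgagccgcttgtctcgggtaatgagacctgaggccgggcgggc
Slc43a1: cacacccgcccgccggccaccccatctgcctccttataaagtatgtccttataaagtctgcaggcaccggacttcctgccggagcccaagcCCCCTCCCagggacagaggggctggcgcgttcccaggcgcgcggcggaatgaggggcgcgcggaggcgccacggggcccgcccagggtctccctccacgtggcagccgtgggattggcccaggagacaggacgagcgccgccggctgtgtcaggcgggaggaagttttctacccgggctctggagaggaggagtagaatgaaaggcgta
The Slc38a5 window held 1 GATA match and 10 matches to CCNCNCCC, most of which overlap in a run of G. Slc25a38 held 0 GATA matches and 2 to CCNCNCCC, which overlap, and Slc43a1 held 0 and 1. Over all 32851 such windows, 29.8% held a GATA match and 49.5% a CCNCNCCC match. Over the 195 windows of 144 solute carrier genes, the shares were 20.5% and 75.9%. Of 8 windows for the 10 genes at 5 or more with the largest young differences above 0, which were chosen by those values, 4 held a GATA match and 7 a CCNCNCCC match. Letters that match are no evidence of binding, and nothing was measured at these promoters.

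Several other carriers known from red cell precursors were highest in young KO. Slc11a2 (ENSMUSG00000023030) encodes the importer that carries ferrous iron out of endosomes after transferrin uptake. It stood at 6.46 and 10.3 in young WT and KO and at 7.38 and 3.90 in old WT and KO, differences of 0.60 in the young and -0.77 in the old pair. Its 4 levels fall in the same order as those of Slc38a5, with the WT libraries closer together. Slc25a38, the mitochondrial glycine carrier needed for the first step of heme synthesis, stood at 3.98, 6.94, 4.57 and 4.31. Slc43a1, a carrier of leucine and other large neutral amino acids, stood at 5.72, 9.04, 5.44 and 5.04. For both genes young KO was the high library (0.67 and 0.58 above young WT) while the other 3 lay together, with differences of -0.07 and -0.09 in the old pair. Slc25a37, which encodes mitoferrin 1, the mitochondrial iron importer of red cell precursors, showed 12.7, 15.7, 9.34 and 9.60, so that it was 0.29 higher in young KO and level in the old pair (0.04).

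All 22 erythroid markers in the list used were listed in every library. Their summed level was 461 and 990 in young WT and KO and 484 and 306 in old WT and KO, again the order of Slc38a5 and Slc11a2. The list was chosen with earlier results of these data known, so its counts are a description only. All 22 lay above 0 in the young pair (50.5% of all genes), 8 of them 2-fold higher (1.02% of all genes). In the old pair, where 50.3% of all genes lay above 0, 17 lay below 0, 5 of them 2-fold lower (2.66% of all genes). The other 5, which lay above 0, were the globin genes Hbb-bs, Hbb-bt, Hba-a1 and Hba-a2, and Alas2. Of these, 3 were 2-fold higher (Hbb-bs, Hbb-bt and Hba-a2), where 1.63% of all genes were. All 5 were lowest in old WT, so they did not share the order of the sum, Slc38a5 and Slc11a2. In bulk RNA, fewer cells of a type and less RNA per cell cannot be told apart. The part of erythroid RNA in the levels of these carriers was not tested.

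**Figure D3:**
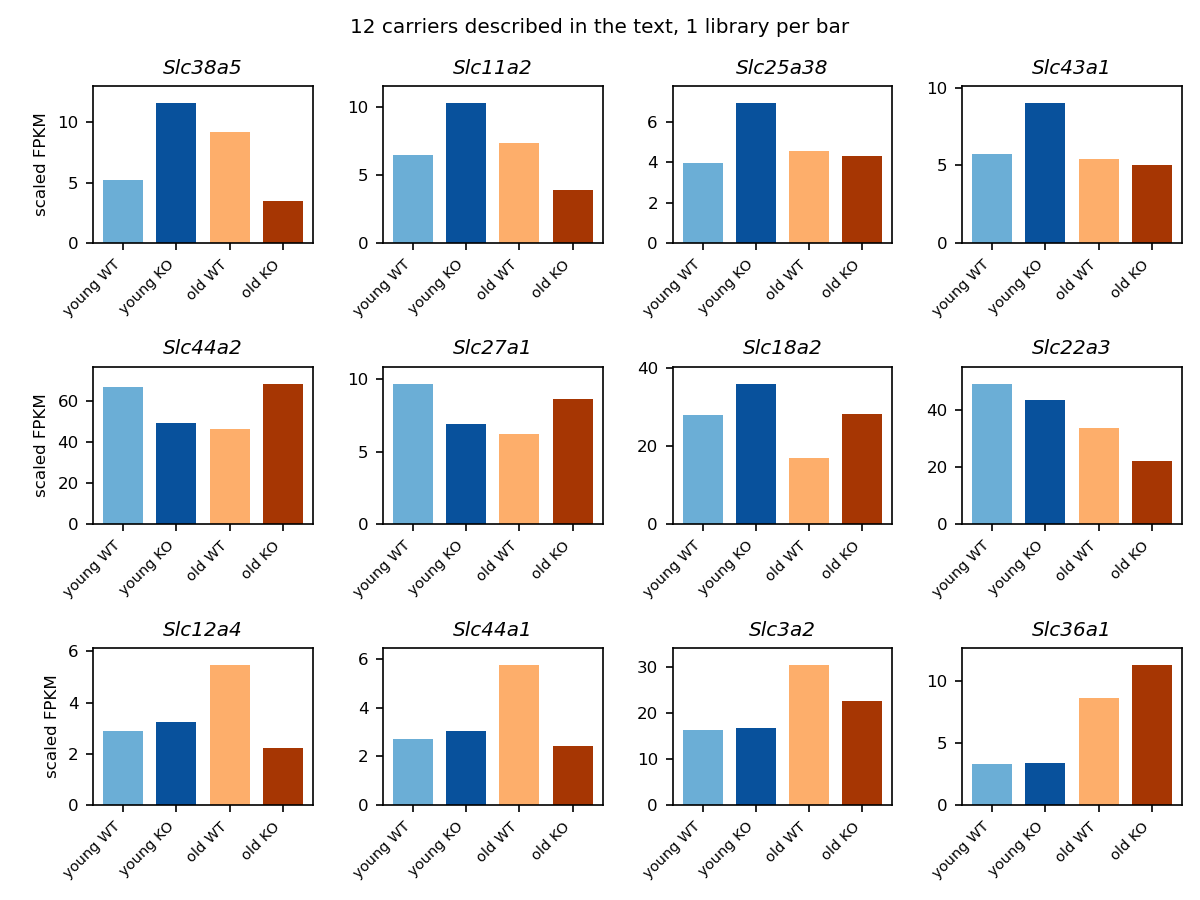
Scaled FPKM of 12 carriers in the 4 libraries, each bar 1 library, axes starting at 0 and scaled per gene. Young KO is the highest bar of Slc38a5, Slc11a2, Slc25a38 and Slc43a1; old WT is the highest of Slc12a4, Slc44a1 and Slc3a2; both old libraries exceed both young ones for Slc36a1.

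Among the 28 amino acid and peptide carriers, the large importers kept their level. Slc38a1, a glutamine importer, stood at 43.6, 47.5, 43.9 and 48.6, and Slc1a5, the exchanger of glutamine and other neutral amino acids, at 22.5, 24.4, 21.2 and 22.4. Slc7a5, the light chain of the leucine exchanger LAT1, stood at 43.8, 39.7, 38.4 and 37.7. Its heavy chain partner gene Slc3a2, which also encodes the surface antigen CD98, stood at 16.3 and 16.6 in the young pair, 30.4 in old WT and 22.5 in old KO. Old WT was thus the high library for the heavy chain (difference -0.42 in the old pair) but not for the light chain (-0.03). In the class as a whole 14 of 25 measured genes lay above 0 in the young pair (1 of them 2-fold higher, median 0.03) and 11 of 21 in the old (1 of the other 10 2-fold lower, median 0.00).

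Further differences of this class concerned genes of moderate or low level. Slc7a6, a carrier of cationic amino acids and partner of Slc3a2, was highest in young WT at 21.4, beside 16.4, 16.7 and 16.8. The peptide importer gene Slc15a2 stood at 3.70 and 6.74 in young WT and KO and at 2.17 and 2.60 in old WT and KO, 0.72 higher in young KO than in young WT. Slc6a15, a sodium-coupled importer of branched-chain amino acids and proline, was also highest in young KO, at 1.83, 4.24, 2.17 and 1.68. Its difference of 0.89 was the nearest below the 2-fold threshold in the young pair. Slc43a2, another leucine carrier, stood at 5.87, 4.73, 4.00 and 5.50 (-0.26 and 0.38). The glycine transporter gene Slc6a9 was near the floor, at 0.793, 1.004 and 0.630, and not listed in old KO.

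The 9 measured sugar carriers gave 4 above and 5 below 0 in the young pair (median -0.02) and 2 above and 7 below 0 in the old pair (median -0.19), none of them 2-fold. Slc2a1, the glucose transporter GLUT1, stood at 5.98 and 4.08 in young WT and KO and at 6.16 and 4.67 in old WT and KO. Both KO libraries lay below both WT libraries, by -0.46 and -0.34 within the pairs. Slc2a3, the transporter GLUT3, stood at 7.28, 7.18, 7.55 and 6.30. Slc37a4, which brings glucose 6-phosphate into the endoplasmic reticulum, was highest in young WT (11.4, 8.66, 8.73 and 7.54), and its relative Slc37a1 lowest there (7.5, 8.83, 8.91 and 8.76). Slc50a1, a sugar exporter, stood at 8.46, 6.03, 6.90 and 7.40, a difference of -0.43 in the young pair and 0.09 in the old.

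All 5 nucleoside and nucleobase carriers were measured, with medians of -0.21 in the young and 0.05 in the old pair. Slc43a3, a purine base carrier, hardly varied (16.9, 17.2, 16.0 and 16.6). Neither did Slc29a1, the equilibrative transporter ENT1 (5.32, 5.89, 5.50 and 5.24). Slc28a2, a sodium-coupled importer of purine nucleosides, stood at 12.6, 10.03, 8.69 and 10.3. Slc29a3, which encodes the lysosomal transporter ENT3, stood at 6.72 and 5.58 in young WT and KO and at 6.01 and 9.05 in old WT and KO, so that old KO stood apart with a difference of 0.52. The 5 nucleotide sugar carriers of the Golgi (Slc35a1 to Slc35a5) had medians of -0.16 and -0.05. The CMP-sialic acid carrier gene Slc35a1 stood at 6.35, 5.6, 5.10 and 5.11.

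Of 24 measured metal and heme carriers, 16 lay above 0 in the young pair (median 0.11) and 12 in the old (median -0.01). By mean over the 4 libraries the zinc carriers led, although Slc48a1 was higher in old WT. Slc30a5, which loads zinc into the secretory pathway, stood at 33.2, 37.7, 31.2 and 37.7, and Slc39a1, an importer of the plasma membrane, at 33.9, 32.4, 29.3 and 31.2. Slc48a1, which moves heme out of lysosomes, stood at 29.5, 29.9, 33.9 and 30.3. In each of these 3 genes the 4 libraries lay within 1.5 times of each other. The Golgi zinc carrier gene Slc30a7 was higher in KO at both ages (7.29 and 9.30 young, 4.5 and 5.74 old; 0.31 and 0.29) and lower in both old libraries. Slc41a3, a magnesium carrier, was highest in young KO (4.55, 6.20, 4.21 and 3.40), while Slc39a6, a zinc importer, was highest in old KO (10.8, 11.7, 9.82 and 13.1).

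The only metal carrier past 2-fold was Slc39a4, the zinc importer ZIP4 best known from the intestine. It stood at 1.19 in young WT and 3.59 in old WT and was listed in neither KO library. With unlisted values set to the floor, the old difference was -1.60. On this floor old KO was at least 7.03-fold lower than old WT. Slc30a10 was listed in young KO alone (1.37) and Slc41a2 in old WT alone (1.66). At such levels the counting error of a log2 ratio is 0.47 or more.

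The Slc25 carriers of mitochondria formed the largest class. Of 38 measured genes, 0 passed 2-fold at either age, 18 lay above and 20 below 0 in both pairs, and the medians were -0.01 and -0.02. Their differences ran from -0.46 to 0.67 in the young pair and from -0.65 to 0.45 in the old. Slc25a3, the phosphate and copper carrier, followed Slc25a5 in level and order (33.7, 37.7, 39.2 and 41.9). Slc25a4, which encodes translocase 1, the sister of Slc25a5, stood at 20.1, 17.5, 13.5 and 18.9, and was thus lowest in old WT, where Slc25a5 was not. Slc25a28, the mitoferrin 2 gene, stood at 18.2, 17.1, 17.1 and 19.8, and Slc25a39, the mitochondrial glutathione carrier gene, at 4.91, 4.89, 5.46 and 5.69. Slc25a12, an aspartate and glutamate exchanger, and Slc25a20, the carnitine and acylcarnitine exchanger, were highest in young WT (12.9 beside 9.26 to 9.71 and 6.25 beside 4.25 to 4.60), which gave -0.44 and -0.46 in the young pair. Slc25a27 was likewise highest in young WT (5.77, 4.20, 3.16 and 3.07), and the ornithine carrier gene Slc25a15 was lowest in old KO (6.31, 5.82, 6.94 and 5.27).

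Among the 9 carriers of lipids, choline and bile acids, the medians were 0.07 in the young and -0.12 in the old pair. Slc44a2 stood at 66.9 and 49.2 in young WT and KO and at 46.3 and 68.6 in old WT and KO, differences of -0.44 and 0.56. Slc27a1, a fatty acid transport protein, had the same shape at 9.69, 6.90, 6.20 and 8.68 (-0.44 and 0.43). In both genes young WT and old KO were the high libraries and the other 2 the low ones. Slc44a1, the main choline transporter of many cells, stood apart in old WT instead: 2.72, 3.04, 5.77 and 2.42, a difference of -0.98 in the old pair. Slc33a1, which brings acetyl-CoA into the endoplasmic reticulum, was also highest in old WT (6.67, 7.86, 8.13 and 5.6). Slc10a7 stood at 11.7, 12.3, 10.4 and 9.08.

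The 21 measured inorganic ion carriers of the young pair had a median of -0.09 and the 19 of the old pair one of -0.04. Slc12a4 encodes a cotransporter of potassium and chloride. It stood at 2.87, 3.23, 5.48 and 2.24, with a difference of -0.999 in the old pair, just short of the threshold, and passed it with upper-quartile scaling (-1.01). Old WT was the high library, as for Slc44a1. Slc12a2, which brings sodium, potassium and chloride into the cell, was highest in old WT (7.75) and young KO (7.23) and lower in young WT (5.74) and old KO (4.54), differences of 0.29 and -0.66. Slc12a9, of the same family and without a settled substrate, was highest in old KO (5.34, 6.12, 4.00 and 6.94; 0.67 in the old pair). The bicarbonate cotransporter gene Slc4a7 stood at 16.0, 13.4, 11.7 and 14.4. The endosomal sodium and proton exchanger gene Slc9a9 stood at 6.44, 6.00, 3.89 and 5.40 (0.39 in the old pair), and its relative Slc9a8 at 6.81, 4.70, 4.75 and 4.15 (-0.45 in the young pair).

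Slc26a1, a sulfate exchanger, was the other gene past 2-fold in the young pair. It was not listed in young WT and stood at 2.02 in young KO and at 0.929 and 0.535 in old WT and KO. Against the floor, the young difference was 1.04, at least 4.30-fold. Its whole locus lies inside that of Idua, and with strand use not given, reads of the 2 genes cannot be told apart. Without scaling the difference was 0.99.

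Of the 12 organic ion carriers measured in the young pair, 4 lay above 0 (median -0.09). Slc22a3, an organic cation transporter, stood at 49.2 and 43.5 in young WT and KO and at 33.5 and 22.1 in old WT and KO. It was lower in both old libraries, and old KO lay 0.58 below old WT on the log2 scale. Slc18a2, which loads monoamines such as histamine and serotonin into vesicles, was higher in KO at both ages: 28.0 and 35.9 young, 16.8 and 28.2 old, differences of 0.35 and 0.71. Slc22a17, a receptor for lipocalin 2, was lower in KO at both ages (5.35 and 3.05 young, 3.68 and 1.97 old), with a difference of -0.65 in each pair. The monocarboxylate carriers were led by Slc16a1, the lactate transporter MCT1, at 29.3, 32.5, 24.4 and 21.4. Slc16a6 followed at 11.4, 12.9, 10.6 and 11.8, and Slc16a3, the lactate exporter MCT4, was low at 1.18, 0.683, 1.02 and 0.866.

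Among vitamin and osmolyte carriers, none passed 2-fold between KO and WT at either age. Slc46a3, a low gene of the vitamin class, came closest at 0.841, 1.68, 1.29 and 0.791 (0.54 in the young pair). Slc23a2, an ascorbate importer, stood at 8.34, 7.19, 6.05 and 6.66 and Slc19a1, the reduced folate carrier, at 6.37, 7.88, 6.18 and 7.02. The taurine importer gene Slc6a6 stood at 19.8, 18.4, 18.5 and 16.1. Slc14a1, the urea channel that carries the Kidd blood group, stood at 18.6, 20.004, 16.7 and 11.995, lowest in old KO (-0.45). Slc5a3, a myo-inositol importer, was highest in young KO at 5.78, 8.55, 4.31 and 3.77 (0.49 in the young pair). Its locus lies wholly inside that of Mrps6, and Slc19a1 overlaps Col18a1, so the values of these genes may hold reads of the neighbour.

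Between the ages, 159 solute carrier genes were measured in both KO comparisons, which share no library. Of these, 32 (20.1%) were higher in KO at both ages, 40 (25.2%) lower at both, 48 (30.2%) higher young and lower old, and 39 (24.5%) the reverse. Over all 11873 genes measured in both, the shares were 26.2%, 25.3%, 24.2% and 24.3%. With differences of at least 0.5 each way, 4 genes were higher in KO when young and lower when old: Slc38a5, Slc11a2, Slc25a21 and Slc22a23. The last 2 were low, Slc25a21 at 2.41, 3.84, 3.03 and 1.57 and Slc22a23 at 0.684, 1.94, 1.48 and 0.539. No solute carrier gene took the reverse path at that size, 0 were higher by 0.5 at both ages, and 2 were lower by 0.5 at both (Slc22a17 and Slc39a4). The counts at 0.5 were not taken over all genes, so they have no background here and describe only the genes named. Pearson's r of the 2 differences was -0.13 over the 159 genes and -0.02 over the 11873, given as a description. Spearman's rho was -0.085 and 0.019.

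**Figure D4:**
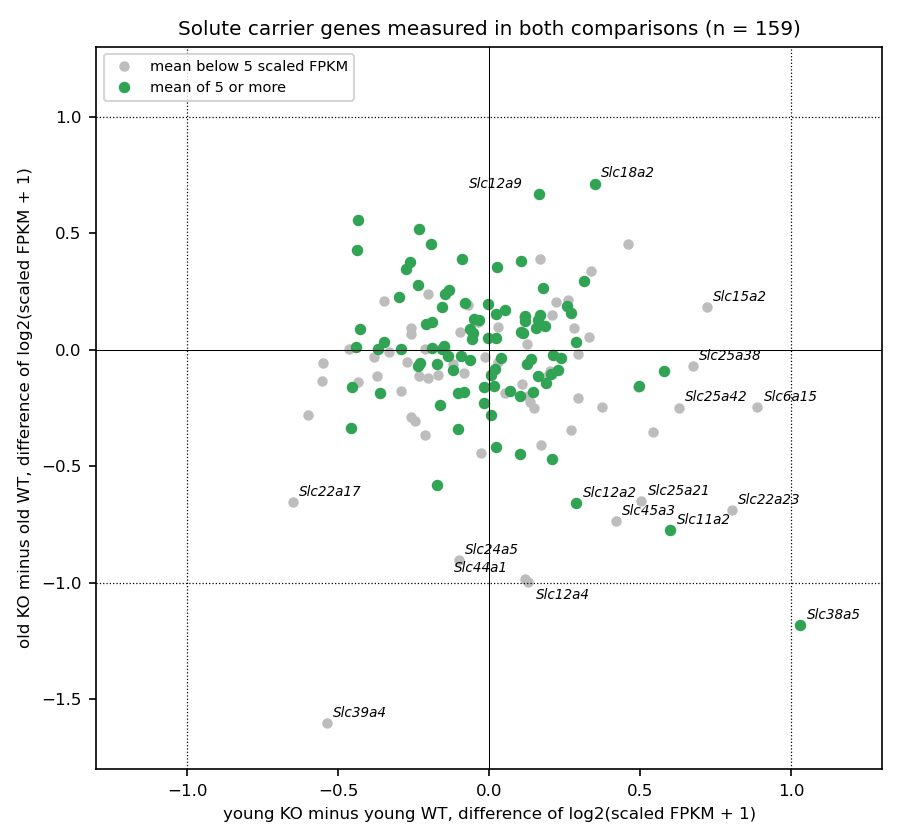
Difference between KO and WT in the young pair (x axis) against that in the old pair (y axis), on the log2(scaled FPKM + 1) scale, for the 159 solute carrier genes measured in both; green points average 5 scaled FPKM or more over the 4 libraries and dotted lines mark 2-fold. Most points lie within 0.5 of 0 on both axes, Slc38a5 lies alone at lower right (1.03 and -1.18), and Slc39a4, a low gene, lies lowest (-1.60).

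Markers of other cell types, in lists also chosen with earlier results known, differed between the libraries beside these genes. The summed level of 14 granulocyte-monocyte progenitor markers was 1076 and 961 in young WT and KO and 1375 and 2328 in old WT and KO. That of 13 neutrophil markers was 7.95, 9.01, 46.2 and 398, with 8, 8, 2 and 0 of them not listed, and that of the monocyte and macrophage markers 164, 132, 111 and 319. Old KO, the library with the highest of these 3 sums, was also the highest for Slc29a3, Slc12a9 and Slc44a2. For Slc44a2, young WT was nearly as high (66.9 beside 68.6 in old KO), unlike the sums. Of the 11 monocyte and macrophage markers measured in the old pair, 9 lay above and 2 below 0. Those 2 were C1qa, which was 2-fold lower (3.29 in old WT, 0.924 in old KO), and Vcam1 (1.82 and 1.19). The sum of 16 B and plasma cell markers was 53.6, 66.4, 2221 and 226, with 10, 7, 4 and 1 not listed. Immunoglobulin genes held 0.618%, 0.863%, 26.7% and 4.63% of the summed FPKM. Old WT, with the highest of these values, was the high library for Slc44a1, Slc12a4, Slc3a2, Slc33a1 and Slc39a4 and the only one to list Slc41a2. For Slc33a1, young KO was nearly as high (7.86 beside 8.13 in old WT), unlike these values. The sum of 12 mast cell, basophil and eosinophil markers was 653, 593, 302 and 136, in the same order as Slc22a3 (49.2, 43.5, 33.5 and 22.1). Of these 12 markers, 6 lay above and 6 below 0 in the young pair, and all 9 measured lay below 0 in the old. The sum of megakaryocyte markers fell in that order too (74.8, 72.6, 54.4 and 30.7). Slc18a2, which loads histamine into vesicles, did not (28.0, 35.9, 16.8 and 28.2). The part of these cell types in the carriers' levels was not tested.

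**Figure D5:**
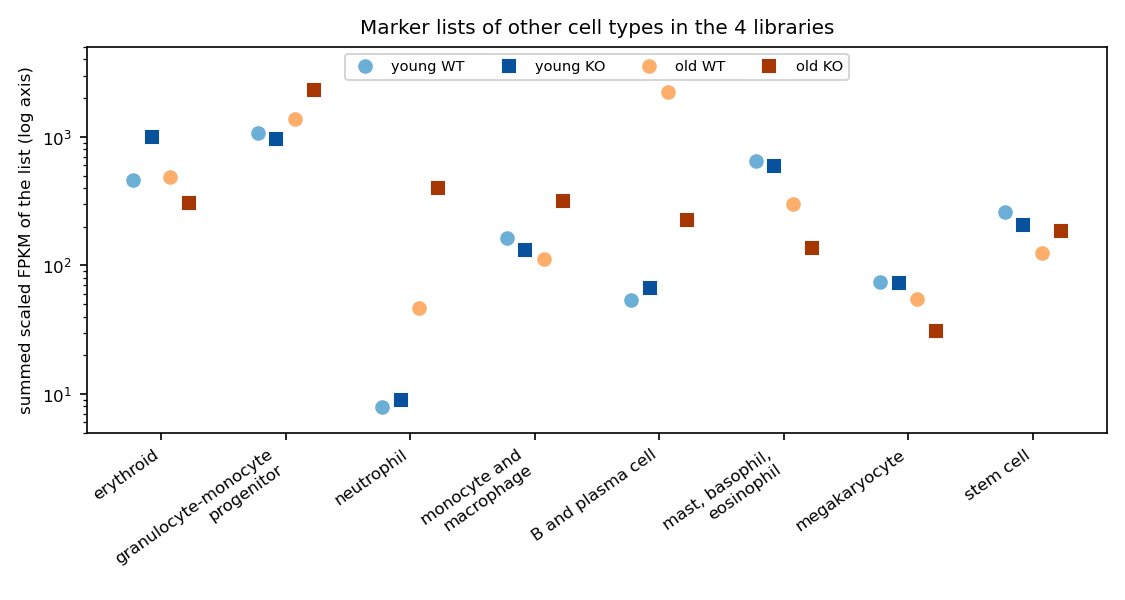
Summed scaled FPKM (log axis) of 8 marker lists in the 4 libraries, 1 point per library. Young KO is highest for erythroid markers (990), old WT for B and plasma cell markers (2221), and old KO for the granulocyte-monocyte progenitor (2328), neutrophil (398) and monocyte and macrophage (319) lists. Single markers can differ from their sum, as C1qa of the last list, which is 2-fold lower in old KO than in old WT.

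With age, solute carrier genes lay lower more often than higher in both genotypes. From young to old WT, 52 of 165 measured genes lay above and 113 below 0, with a median of -0.10. Over all genes, 6186 of 12569 lay above 0, with a median of -0.01. From young to old KO, 62 of 169 lay above and 107 below 0, with a median of -0.12, and over all genes 6245 of 12534 lay above 0, with a median of 0.00. Less the median of all genes, these medians were -0.09 and -0.12 and kept their sign under every scaling tried. In WT, 3 were 2-fold higher (4.22% of all genes) and 0 were 2-fold lower (1.33% of all genes). In KO, 1 was 2-fold higher (4.95% of all genes) and 6 were 2-fold lower (2.24% of all genes). The age comparisons use the same libraries as the KO comparisons, and the young and old libraries also differ in the sex-linked RNA named above. Young and old stand for 4 weeks and 8 months after pI-pC. Age therefore cannot be told apart from the time since that treatment, which in KO is also the time since induction of the deletion.

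The only gene called 2-fold higher with age in both genotypes was Slc36a1. It encodes a proton-coupled amino acid exporter of lysosomes that also takes part in mTORC1 signalling. Slc36a1 stood at 3.33 and 3.41 in young WT and KO and at 8.63 and 11.3 in old WT and KO, differences of 1.15 in WT and 1.48 in KO. Its young values agree within the counting error, and both old values lie above them. The other 2 genes called 2-fold higher with age in WT were low: Slc39a4 (1.07) and Slc16a12, at 0.654, 1.03, 2.39 and 1.94 (1.04). The 6 called 2-fold lower with age in KO were Slc38a5 (-1.48), Slc11a2 (-1.21), Slc15a2 (-1.11), Slc45a3 (-1.28), Slc5a3 (-1.002) and the pseudogene Slc2a4rg-ps (-1.08). Slc45a3 was low, at 2.18, 3.26, 1.91 and 0.75. Its whole locus overlaps that of Gm29103, so its values may hold reads of that gene. Young KO was the highest of the 4 libraries for all 6, which were picked for standing 2-fold higher in young KO than in old KO.

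Genes outside the superfamily that act with it showed few differences. Of the 21 measured genes of the amino acid response, 15 lay above 0 in the young pair (median 0.15) and 1 was 2-fold higher. That was Asns, asparagine synthetase, at 8.40 and 18.1 in young WT and KO and at 17.4 and 9.98 in old WT and KO (1.02 and -0.74). Asns was thus high in the same 2 libraries as Slc38a5, whose product carries asparagine and glutamine. In the old pair 11 of 22 lay above 0 (median 0.00), with 1 gene 2-fold higher, the transcription factor gene Cebpb (6.20, 5.55, 13.1 and 28.7). Of 17 genes of iron and heme handling, 13 lay above 0 in the young pair (median 0.18) and 8 in the old (median -0.06). The ferritin receptor gene Ncoa4 was the only one of them past 2-fold, in the young pair (2.24 and 6.29; 1.71 and 2.06 old). The endosomal iron reductase gene Steap3, which works with Slc11a2, stood at 4.93, 6.68, 5.40 and 3.42. The transferrin receptor gene Tfrc stood at 20.4, 27.8, 22.6 and 25.9.

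Of 8 genes for partners that carriers need, 2 lay above 0 in the young pair and 4 in the old, none 2-fold. Emb, the chaperone of some monocarboxylate carriers, stood at 112, 90.03, 109 and 213 and came closest (0.95 in the old pair). Of 23 genes by which mTORC1 senses amino acids, 0 passed 2-fold at either age (medians 0.04 and -0.05). The largest differences there were those of Rraga (17.3 and 11.1 in the young pair, -0.59) and Sesn1 (27.1 and 19.8 in the old pair, -0.44).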

How the data were processed

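Total RNA of sorted LSK cells was sequenced in 4 libraries, 1 for each genotype at each age. The 2 bisulfite samples were not analysed here. The deposited files give FPKM per gene with identifier, symbol and position, per the file headers. Build mm10 (GRCm38) and the tools HISAT2 2.0.4 and StringTie 1.3.0 come from the submitters' processing notes, without their roles. Whether strand was used is not given in these sources. The lowest deposited FPKM was 0.5, and an unlisted gene was set to 0.5 before scaling, which makes any fold against it a lower bound.

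Symbols with several rows were summed (14468 identifiers, 14455 symbols, 14382 identifiers found in a table of names, all 192 solute carrier genes among them), and 18 symbols turned into dates were restored. Libraries were scaled by medians of ratios over 10935 genes at 1 or more in all 4, with multipliers of 0.940, 1.02, 1.02 and 1.02. The pseudocount was 1. Python 3.11.15, pandas 2.3.3 and numpy 2.4.6 were used, and the steps were tested on simulated data. No test was run, with 1 library per group. Depth was read from low values: FPKM times locus length was a whole multiple of 0.0522 to 0.0560 (tolerance 0.02 steps) for 62.2% to 70.8% of values at loci under 1500 bp, and 1 counted unit was taken as 2 such steps. In the old libraries 52.6% and 56.8% of these multiples were odd (1.37% and 1.13% in the young), so their depth may be higher than stated.

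The solute carrier genes, substrate classes (by family and gene), cell type marker lists and pathway lists (amino acid response, iron and heme handling, carrier partners, mTORC1 sensing) were chosen with earlier results of these data known. Also computed were sums of megakaryocyte markers (74.8, 72.6, 54.4 and 30.7 in the young WT and KO and the old WT and KO libraries) and stem cell markers (261, 207, 124 and 184). Some markers stand in more than 1 list. Solute carrier genes were named where they passed 2-fold, ranked among the 10 largest rises or falls of a KO comparison at 5 or more, were among the 2 highest of a class, or were on a fixed list; some genes that this rule names are not reported here. Slc6a15, Slc25a21, Slc22a23, Slc30a10, Slc41a2 and Slc46a3 were named after their values were seen. The alternatives tried were other scalings, pseudocounts, minimum levels, unlisted genes at 0, transporters only, and genes listed in all 4 libraries.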

Additional observations from a re-analysis of the deposited data

Results flagged for a closer look

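Slc38a5 differed between KO and WT in opposite directions at the 2 ages, by 1.03 on the log2(scaled FPKM + 1) scale in the young pair and by -1.18 in the old pair. The difference between the ages was not tested, since each group had 1 library.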

How the results depend on the processing

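With 1 library per group, no call has a replicate check, and low genes are limited by counting. No paired analysis was possible because each group had 1 library, so the labels pair no replicates, and a fit of genotype over both ages was not run. No member past 2-fold changed sign under any alternative run. Members 2-fold higher in young KO numbered 2; they numbered 0 without scaling, 8 at a pseudocount of 0.1, 0 at a pseudocount of 5, 1 at a minimum of 5, 4 with unlisted genes at 0 and 1 among genes listed in all 4 libraries. Members 2-fold lower in young KO numbered 0, and 1 at a pseudocount of 0.1 or with unlisted genes at 0. Members 2-fold lower in old KO numbered 2, beside 8 at a pseudocount of 0.1, 0 at a pseudocount of 5, 1 at a minimum of 5 and 1 among genes listed in all 4 libraries. Without scaling the members' median was -0.095 in the young pair, where the median of all genes moved from 0.00 to -0.099, and -0.20 from young to old WT. Of 70 named genes, 8 changed sign in the young and 2 in the old pair without scaling, and 0 and 4 with upper-quartile scaling. Less the median of all genes and at a minimum of 5, class medians in the young pair were -0.20 for sugars, -0.16 for lipids, -0.11 for nucleosides and -0.00339 for vitamins, and in the old pair 0.10 for inorganic ions, -0.34 for osmolytes and 0.096 for vitamins. With no minimum they were -0.12 for sugars and 0.00322 for vitamins (young pair). Lipids stood at -0.041 (young pair) among genes listed in all 4 libraries. Mono- and dicarboxylates stood at 0.14 in the old pair both without scaling and with upper-quartile scaling. From young to old WT, 2-fold higher members numbered 1 without scaling, 7 at a pseudocount of 0.1, 0 at a pseudocount of 5 and 1 at a minimum of 5, and lower ones 1 at a pseudocount of 0.1. From young to old KO, higher ones numbered 3 at a pseudocount of 0.1 and 0 at 5. Lower ones numbered 10 with upper-quartile scaling, 16 and 0 at those pseudocounts, and 10 with unlisted genes at 0. The age alternatives and the filter on genes listed in all 4 libraries were chosen after seeing the data. The causes of these shifts were not tested.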

Other observations

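A further 19 genes of solute carrier families have symbols outside the pattern used (Slc35b to Slc35g, Slc18b1 and Slc8b1), most of them Golgi or orphan transporters. Of 18 measured in each KO comparison, 0 passed 2-fold, with medians of -0.03 in the young and 0.04 in the old pair. The largest difference was that of Slc35c1, which brings GDP-fucose into the Golgi for the fucosylation of selectin ligands. It stood at 10.1 and 10.7 in young WT and KO and at 6.58 and 13.5 in old WT and KO, 0.93 higher in old KO than in old WT. Slc35g1 stood at 4.92, 7.57, 8.19 and 5.10 in the same order (0.53 and -0.59), high in the same 2 libraries as Slc38a5. These genes were looked at after the data were seen.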
